A study of Macaca fascicularis with 10 samples.

Results

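Haploid embryonic stem cells of the cynomolgus monkey (Macaca fascicularis) were set against cells labelled fibroblast, to describe which genes the stem cells express more and which they lack. The comparison used 7 of the 10 arrays of the series, chosen by their labels alone: 5 of parthenogenetic haploid embryonic stem cells (PG-haESCs) and 2 titled MF. PG-haESCs came from blastocysts that develop from an egg without a sperm genome, and their karyotype is labelled haploid. PG-haESC arrays 1 to 4 were of the line MPH1 at passages 8, 11, 7 and 9, the first pair under the code M1 and the other pair under the code M2, and array 5 was of the line MPH2 at passage 4. The MF arrays were of female somatic cells labelled diploid, at passages 14 and 15 under 1 code. The other 3 arrays of the series were of diploid embryonic stem cells derived after intracytoplasmic sperm injection (ICSI ESCs). They entered the shared estimate of spread, the filter and the choice of each gene's probe set, but neither side of the comparison. PG-haESCs were grown on feeder cells with Y27635 and Thiazovivin, inhibitors of the kinase ROCK that help dissociated stem cells survive. The feeder species, the culture of the MF cells and whether a line is 1 clone are not given in the sources used here. Cell type, ploidy and parental origin differ between the groups and culture may, so their parts in any difference cannot be told apart. Nothing in the labels ties arrays of a line to separate cultures, so p-values measure the spread between these arrays, which may be technical.

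Embryonic stem cells can form every tissue of the body, and a network of transcription factors around POU5F1, SOX2 and NANOG holds them in that state. They divide fast, with short gap phases between DNA synthesis and mitosis, and primate lines depend on FGF and activin or NODAL signals. Fibroblasts are the connective tissue cells that deposit collagen and other matrix, keep a positional code of HOX genes and divide slowly or rest.

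Signals are linear MAS5 intensities, 1 value per probe set. A probe set was tested if it lay above its array's median on at least 2 arrays, and a gene is given by its brightest tested probe set. A gene was called higher or lower in PG-haESCs at an adjusted p under 0.05 (limma, Benjamini-Hochberg over 34139 probe sets). A fold is written as "at least" where every array of the dimmer group was at or under its array's median, with that group raised to the median. Other folds are those of the fit. Values of PG-haESC arrays are given in the order 1 to 5, and those of the arrays labelled fibroblast in the order 1 and 2.

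The markers of the arrays were checked against their labels first. PG-haESC arrays carried the pluripotency factors at a mean log2 signal of 10.5 to 10.9 over 19 genes, against 6.59 and 6.74 on the arrays labelled fibroblast. The arrays labelled fibroblast carried 12 fibroblast markers at 12.9 on both arrays, above the 8.07 to 10.9 of the PG-haESC arrays. They also carried 23 keratinocyte markers at 12.7 and 12.8, against 5.37 to 6.41, and 12 leukocyte markers at 9.41 and 9.37, against 4.87 to 6.33. All 23 keratinocyte markers tested were lower in PG-haESCs (17.2% of all genes tested were called lower), with a median log2 difference of -5.66, and 10 of them passed the filter only through the arrays labelled fibroblast. Without array 1 or array 2 of that label 12 were called, since genes dim on every stem cell array then failed the filter. Adipocyte markers had 7 of 10 lower, leukocyte markers 7 of 12, endothelial markers 4 of 12 and melanocyte markers 3 of 10. Of these, 2 adipocyte, 6 leukocyte, 3 endothelial and 2 melanocyte markers passed the filter only through the arrays labelled fibroblast. A gene that passed in that way had to be lower in PG-haESCs, so the counts of these 5 lists describe the arrays and support nothing else. Without array 1, or without array 2, of that label the counts were 4, 3, 2 and 1 for adipocyte, leukocyte, endothelial and melanocyte markers. The matrix and antigen presentation lists below hold 2 such members each. The mesenchymal, HOX, contractile, trophoblast, endoderm and Schwann cell lists hold 1 each. These counts leave out genes that were also above the median on 1 ICSI ESC array, such as MAMU-DRA, or on 1 PG-haESC array. The latter include the keratinocyte marker SBSN, the neural marker POU3F1 and the growth arrest gene ZBTB16. Such genes could not have passed without the arrays labelled fibroblast either, so the counts are minimums. By signal, the arrays labelled fibroblast carried markers of skin epidermis beside those of fibroblasts, and genes given as lower are lower than in that material. The part of those cells in each difference was not tested.

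**Figure D1:**
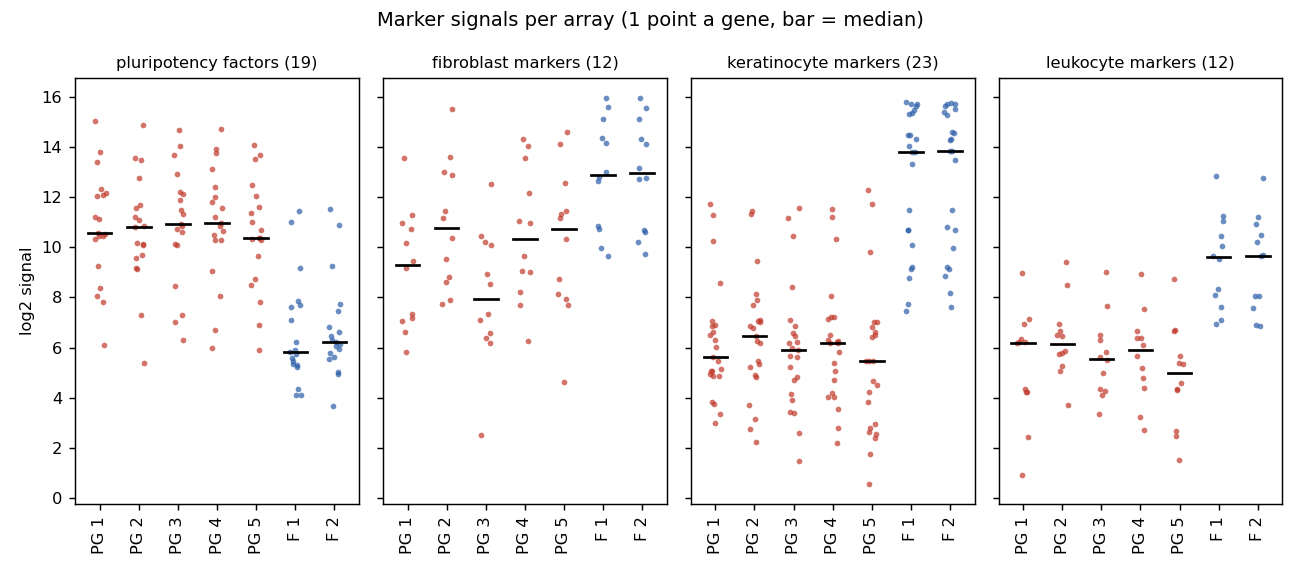
Log2 signal of each tested member of 4 marker lists on each array, with 1 point per gene and a bar at the median; PG 1 to 5 are the PG-haESC arrays and F 1 and F 2 the arrays labelled fibroblast. Pluripotency factors are high on all 5 PG-haESC arrays, and the arrays labelled fibroblast are high for fibroblast and keratinocyte markers. On the arrays labelled fibroblast, leukocyte markers are lower than fibroblast and keratinocyte markers, yet above their own level on the PG-haESC arrays.

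Arrays of PG-haESCs correlated with each other at 0.863 to 0.934 over all probe sets tested and with the arrays labelled fibroblast at 0.618 to 0.689. The 2 arrays labelled fibroblast correlated at 0.945 and were closer than any other pair. Over 8885 probe sets above the 75th percentile of all 7 arrays, their signals differed by a median of 0.0829 log2, against 0.154 to 0.334 between pairs of PG-haESC arrays. So the count of calls with the arrays of each line averaged into 1 is given beside the main one, and for many lists where it moved by over 1.5 times. The ratio of 3' to 5' control probe sets, which rises as RNA breaks down, was 8.39 and 9.14 for ACTB on the arrays labelled fibroblast and 2.92 to 4.96 on the PG-haESC arrays. For GAPDH it was 4.07 and 3.62 against 1.88 to 2.45. The part of RNA quality in the results was not tested. In bulk samples, fewer cells of a type and less RNA per cell cannot be told apart.

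Of 11676 genes tested, 2682 were higher in PG-haESCs (23% of those tested) and 2013 lower (17.2%), so 40.2% were called in either direction. The shares of 23% and 17.2% are the background for every list count below. Over probe sets, 11275 were called (33%), and 6294 with the arrays of each line averaged first. The 5 stem cell arrays lay wholly above the 2 others for 33.9% of genes and wholly below them for 30.2%. Lack of overlap in a gene named below is therefore common. It was also a condition for the 20 genes with the largest rise and the 20 with the largest fall. Genes that rose by at least 2-fold numbered 2099 and genes that fell by at least 2-fold 1768. Of genes called and at least 16-fold apart, 133 were higher and 395 lower. Of the genes called higher, 399 had no array labelled fibroblast above its median, and of those called lower, 290 had no PG-haESC array above its median. The median log2 difference was 0.06 over genes and -0.089 over probe sets. Centring every array on its median moved the latter to 0.241 and the share of called probe sets that were higher from 51.4% to 63.7%. Without fibroblast array 1 or 2 that share was 60.4% or 60.8%.

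**Figure D2:**
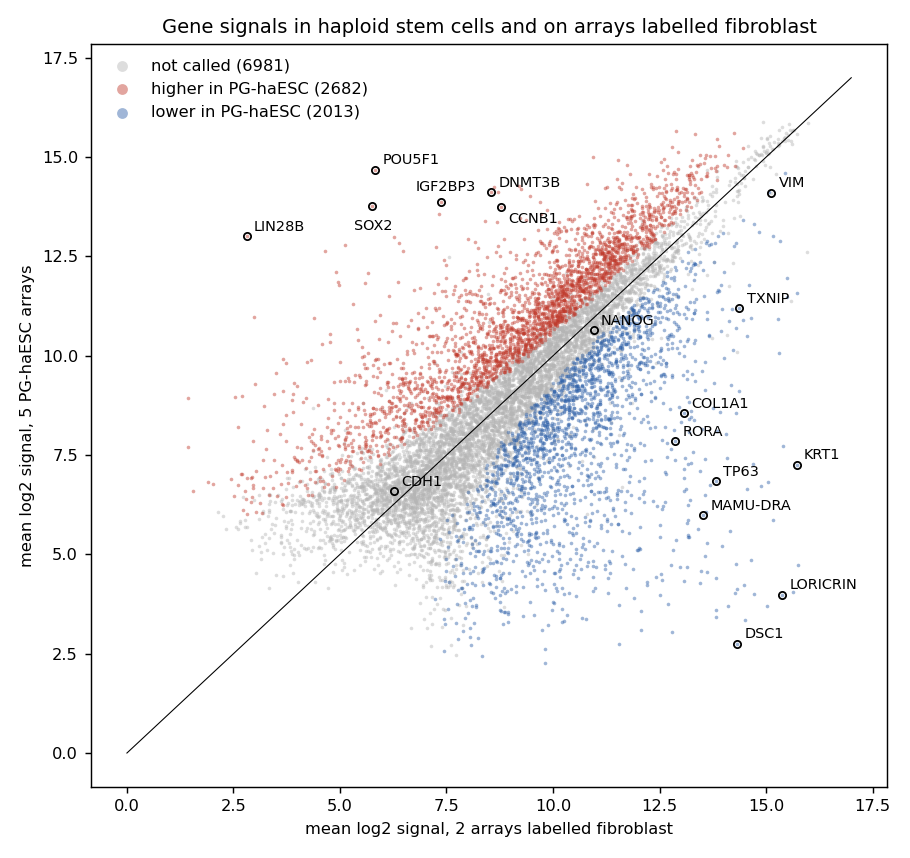
Mean log2 signal of each of the 11676 genes on the 5 PG-haESC arrays (vertical) against the 2 arrays labelled fibroblast (horizontal); red points were called higher (2682), blue points lower (2013) and grey points were not called (6981), and the line marks equal signal. POU5F1, SOX2 and LIN28B lie far above the line, LORICRIN, KRT1 and DSC1 far below it, and NANOG and CDH1 near it.

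Most pluripotency factors rose. Of 19 measured, 14 rose, 1 fell and 4 did not pass, with a median log2 difference of 4.28 (0.06 over all genes). POU5F1, the factor without which the pluripotent state is lost, had signals of 33612, 30209, 26436, 27126 and 17260 on the PG-haESC arrays and 40.6 and 80 on the arrays labelled fibroblast. It was at least 227-fold higher, and MPH2 held the lowest of the 5 stem cell values. Its log2 difference was 8.76 ± 0.34 (SE), and the adjusted p of the 6 factors named as higher here lay between 4.0e-09 and 4.6e-06 (limma). SOX2, its partner on DNA, had 14280, 11468, 17023, 15719 and 11690 on the PG-haESC arrays and 43.8 and 66.3 on the arrays labelled fibroblast. Both arrays labelled fibroblast lay under their medians for either gene, and SOX2 was at least 119.8-fold higher. ZIC2, a zinc finger factor of the primed state and the neural plate, had 5089, 12194, 7819, 9030.1 and 4221 on the PG-haESC arrays and 38 and 31.3 on the arrays labelled fibroblast (at least 61.7-fold). DPPA4, a chromatin-associated protein of pluripotent and germ cells, had 4403, 2998, 3774, 3545 and 3110.1 on the PG-haESC arrays and 20.3 and 49.3 on the arrays labelled fibroblast (at least 30.5-fold). SALL4, a zinc finger partner of POU5F1, had 4571, 3346, 4498, 4074 and 2611 on the PG-haESC arrays and 59.4 and 114 on the arrays labelled fibroblast. All 5 stem cell arrays lay far above the others for these 3 genes, and the log2 difference of SALL4 was 5.43 ± 0.36 (SE). SOX11, a SOX factor of neural precursors, was at least 32-fold higher. TFAP2C, a factor of naive stem cells, trophoblast and skin, fell by 1.51 on the log2 scale, with 609, 766, 1114, 1259 and 1292 on the PG-haESC arrays and 2814 and 2933 on the arrays labelled fibroblast. That call was lost without either array labelled fibroblast, with arrays centred on their medians, averaged per line, or with its probe sets averaged.

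The NANOG probe set did not separate the groups, with 1385, 2342, 1107, 1451 and 2040.3 on the PG-haESC arrays and 2083 and 1904 on the arrays labelled fibroblast. The stem cell arrays lay on both sides of the others, and its log2 difference of -0.26 ± 0.37 did not pass (limma, adjusted p = 0.65). It is the only tested probe set of NANOG, and both arrays labelled fibroblast lay far above their medians of 121.5 and 110.2. Whether it reads NANOG alone was not tested.

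Genes of the naive state, an earlier form of pluripotency than the primed state, were split. Of 6 tested, 1 rose, 2 fell and 3 did not pass, and 3 more on the array did not pass the filter. KLF4, a factor of naive stem cells that skin epithelium also uses, had 1240.2, 5011, 1626, 2460.2 and 1265 on the PG-haESC arrays and 26417 and 24687 on the arrays labelled fibroblast. KLF5, its relative in epithelia, had 1124, 2672, 1187, 1314 and 1308 on the PG-haESC arrays and 12765 and 13046 on the arrays labelled fibroblast. Every stem cell array lay below both other arrays for the pair, and PG-haESC array 2 was the highest of the 5 for each. KLF4 fell by 3.78 and KLF5 by 3.19 on the log2 scale. NR5A2, a nuclear receptor that can switch on POU5F1, rose at least 3.87-fold, with 627, 616, 422, 531 and 208 on the PG-haESC arrays and 12.6 and 67.9 on the arrays labelled fibroblast. Array 5 was the lowest of the stem cell arrays, and the adjusted p of the 3 genes lay between 0.00093 and 0.0037 (limma).

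Stem cell RNA-binding proteins had 8 of 12 higher and 2 lower (median 2.24). LIN28B, which blocks maturation of let-7 microRNAs, had 7948, 6542, 8616, 9036 and 9325 on the PG-haESC arrays and 5.27 and 9.41 on the arrays labelled fibroblast (at least 71.1-fold higher). IGF2BP3, a fetal protein that binds and stabilises mRNAs, had 16482, 14115, 15490, 15073 and 14273 on the PG-haESC arrays and 135 and 205 on the arrays labelled fibroblast (89.9-fold higher). Within each group the values of both genes were close, and the groups lay far apart. RBPMS2, another RNA-binding protein, rose 22.8-fold, and IGF2BP1, of the family of IGF2BP3, at least 5.37-fold. The log2 difference of LIN28B was 10.22 ± 0.33 and that of IGF2BP3 6.49 ± 0.24 (SE), with adjusted p of 3.9e-09 and 1.1e-08 (limma). ESRP2, a splicing regulator of epithelia, went the other way and fell by 1.82 on the log2 scale. Without either array labelled fibroblast, or averaged per line, 1 member of the list was lower.

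**Figure D3:**
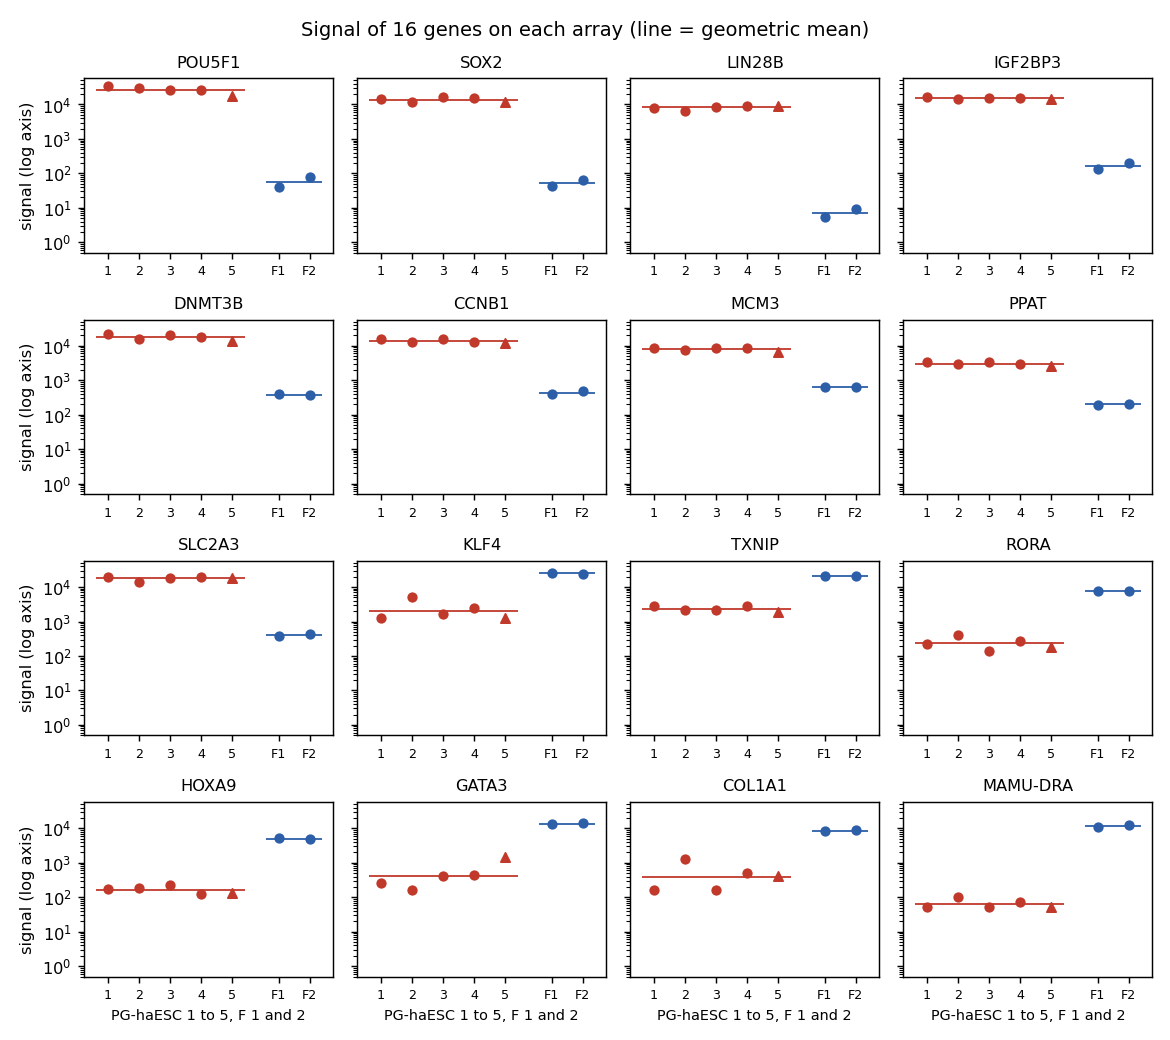
Signal (log axis) of 16 genes on PG-haESC arrays 1 to 5 (red, with a triangle for line MPH2) and on the 2 arrays labelled fibroblast (blue); horizontal lines are geometric means. The 16 genes were picked from those called, some by a rule that required no overlap, so their lack of overlap supports nothing. Over all genes tested, 33.9% lay wholly above and 30.2% wholly below. KLF4, GATA3 and COL1A1 vary visibly among the stem cell arrays.

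Ligands and receptors of the pathways that stem cells depend on rose more often than they fell, with 15 of 25 higher, 5 lower and a median of 1.99. Secreted antagonists were among those that rose. SFRP2, a secreted WNT antagonist, had 2683, 2132, 2841, 3192 and 6888 on the PG-haESC arrays and 224 and 187 on the arrays labelled fibroblast. FST, which binds activin, had 7514, 7280.3, 10210, 12522 and 7171 on the PG-haESC arrays and 1547 and 1469 on the arrays labelled fibroblast. The heparan sulfate proteoglycan GPC4, a co-receptor for growth factors, had 5884, 5006, 8669, 6728 and 5356 on the PG-haESC arrays and 785 and 768 on the arrays labelled fibroblast. None of these 3 overlapped between groups, and MPH2 held the highest SFRP2 value. They rose 17.7-fold, 5.62-fold and 7.82-fold (limma, adjusted p between 5.7e-06 and 4.1e-05). FGF13, an FGF family member that stays inside the cell, rose 10.6-fold. The receptors FGFR2 and ERBB3, which skin epithelium also uses, fell by 1.83 and 2.48 on the log2 scale.

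Epithelial junction genes had 8 of 18 higher and 1 lower (median 0.72), and the claudins, which seal tight junctions, differed in opposite directions. CLDN6, a claudin of embryonic epithelia, had 3287, 2066, 3862, 3458 and 2255 on the PG-haESC arrays and 57.3 and 89.1 on the arrays labelled fibroblast (at least 25-fold higher). CLDN7 had 1269.6, 1042, 1490, 1348 and 662 on the PG-haESC arrays and 77.2 and 118 on the arrays labelled fibroblast. CLDN4 ran the other way, with 245, 275, 259, 416 and 619 on the PG-haESC arrays and 1839 and 1831 on the arrays labelled fibroblast. For CLDN6 and CLDN7 every stem cell array was above both others, and for CLDN4 every one was below. CLDN7 rose by 3.44 and CLDN4 fell by 2.31 on the log2 scale (limma, adjusted p between 7.0e-07 and 0.0014 for the 3 claudins). F11R, a tight junction adhesion molecule, rose 2.92-fold. The CDH1 probe set, named for the main cadherin of epithelia, had 82.5, 141, 82.3, 98.5 and 88.9 on the PG-haESC arrays and 101 and 59.2 on the arrays labelled fibroblast. These values lie near the array medians in both groups and overlap, and CDH1 was not called. Averaged per line, 5 junction genes were higher.

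Chromatin regulators had 19 of 25 higher and 1 lower (median 1.67). DNMT3B, which methylates new sites on DNA, had 21411, 15843, 20873, 17603 and 13954 on the PG-haESC arrays and 389 and 363 on the arrays labelled fibroblast (45.5-fold higher). HELLS, a helicase that opens chromatin for DNA methylation, had 4731, 5437, 6128, 5059 and 5883 on the PG-haESC arrays and 195 and 158 on the arrays labelled fibroblast. TET1, which oxidises methylated cytosine, had 3315, 2944, 5021, 4135 and 5111 on the PG-haESC arrays and 208 and 157 on the arrays labelled fibroblast. These 3 genes separated the groups on every array, HELLS by 31.3-fold and TET1 by 23-fold, and DNMT3A, the relative of DNMT3B, rose 21.3-fold (limma, adjusted p between 3.6e-08 and 9.5e-07 for the 4 genes). The exception was DNMT1, the enzyme that copies methylation after replication, with 219, 317, 211, 267 and 261 on the PG-haESC arrays and 982 and 925 on the arrays labelled fibroblast. It fell by 1.91 on the log2 scale, on its only probe set. That call was lost without either array labelled fibroblast, averaged per line and without the variance trend.

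Genes of cell division rose together. All 22 mitosis genes tested rose, with differences from 1.15 to 5.63 log2 and a median of 3.46, where 23% of all genes tested rose. CCNB1, the cyclin that starts mitosis, had 15509, 12974, 15534, 12856 and 12212 on the PG-haESC arrays and 408 and 472 on the arrays labelled fibroblast. NCAPG, a subunit of condensin, had 5626, 4703, 5582, 4956 and 4374 on the PG-haESC arrays and 187 and 174 on the arrays labelled fibroblast. MAD2L1, of the spindle checkpoint, had 6477, 6769, 9788, 8556 and 6325 on the PG-haESC arrays and 311 and 264 on the arrays labelled fibroblast. These 3 were low on both arrays labelled fibroblast and close over the stem cell arrays. KIF2C, a kinesin that corrects faulty spindle attachments, had 3391, 2603, 3689, 3054 and 3346 on the PG-haESC arrays and 191 and 166 on the arrays labelled fibroblast. For each of the 4 genes the lowest stem cell array lay far above both arrays labelled fibroblast. The fitted folds were 30.8, 27.3, 25.4 and 18.1 (limma, adjusted p between 1.3e-08 and 1.2e-07). The mean level of the list ran from 11.5 to 11.9 log2 over PG-haESC arrays, against 8.23 and 8.22.

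DNA replication genes had 20 of 22 higher and none lower (median 2.38). MCM3 and MCM2, subunits of the helicase that opens DNA, rose 11.8-fold and 7.2-fold. MCM3 had 8416, 7662, 8367, 8520.2 and 6396 on the PG-haESC arrays and 644 and 643 on the arrays labelled fibroblast. CDC6, which loads that helicase, had 1546, 1409.6, 1469.7, 1313 and 1345 on the PG-haESC arrays and 138 and 177 on the arrays labelled fibroblast (8.97-fold). PCNA, the sliding clamp of the polymerases, had 21912, 17072, 18751, 18321 and 18080 on the PG-haESC arrays and 2967 and 3189 on the arrays labelled fibroblast (6.07-fold). These values lie in narrow bands within each group. DNA repair genes followed, with 21 of 23 higher and none lower (median 1.65). CHEK1, a kinase that halts the cycle when replication stalls, rose 9.88-fold, RAD51AP1 of homologous recombination 9.86-fold, PARP1, a sensor of DNA breaks, 7.66-fold and MSH6 of mismatch repair 5.58-fold. No array of one group reached the other for any of these 4 genes (limma, adjusted p between 2.0e-06 and 8.9e-06).

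Genes that hold back division were lower in part. Of 15 growth arrest genes, 8 fell, 1 rose and 6 did not pass (median -1.31). TXNIP, an inhibitor of thioredoxin and of glucose uptake, had 2843, 2189, 2158, 2908 and 1864 on the PG-haESC arrays and 21414 and 21082 on the arrays labelled fibroblast. MXI1, an antagonist of MYC, had 1171, 1265, 1256, 1409 and 1839.6 on the PG-haESC arrays and 6392 and 6996 on the arrays labelled fibroblast. CDKN2C, an inhibitor of the G1 cyclin kinases, had 22.8, 7.71, 65.4, 14 and 84.6 on the PG-haESC arrays and 1217 and 1121 on the arrays labelled fibroblast. All stem cell arrays lay below both others for these genes, TXNIP by 9.33-fold and MXI1 by 4.68-fold (limma, adjusted p between 3.1e-05 and 0.0021 for the 3 genes). ZBTB16, a zinc finger repressor, had 21.6, 21.9, 11.9, 9.51 and 259.6 on the PG-haESC arrays and 2394 and 2348 on the arrays labelled fibroblast. Array 5 stood above the other stem cell arrays and was the only one above its median, ICSI ESC arrays included. So ZBTB16 could not have passed the filter without the arrays labelled fibroblast, and its place in the count supports nothing. Its call was also lost averaged per line. RB1, the retinoblastoma gene, was the member that rose, by 0.91 log2, a call lost averaged per line, with its probe sets averaged and under a 2-fold threshold. CDKN1A, an inhibitor of the cyclin kinases that p53 induces, varied over the stem cell arrays with 335, 680.2, 205, 1641 and 2312, against 2944 and 3021. It did not pass (log2 difference -1.83 ± 1.04). The count of 8 was 3 averaged per line and 4 with arrays centred on their medians.

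Lists of genes that supply growing cells were also read. Nucleotide and one-carbon synthesis genes had 15 of 17 higher (median 2.04), ribosome biogenesis genes 17 of 19 (median 1.23), mitochondrial import and translation genes 14 of 14 (median 1.40) and nuclear pore and import genes 6 of 12 (median 1.25), with none lower in any of the 4 lists. PPAT, which starts purine synthesis, had 3291, 2916, 3365, 3012 and 2612 on the PG-haESC arrays and 197 and 207 on the arrays labelled fibroblast (14.7-fold). MTHFD1, of the folate cycle, had 8465, 6288, 7240.5, 6593 and 7164 on the PG-haESC arrays and 889.9 and 871 on the arrays labelled fibroblast (8.09-fold). AHCY, which recycles the by-product of methylation reactions, rose 5.37-fold. For all 3 genes every stem cell array was above both others (limma, adjusted p between 1.3e-07 and 3.1e-06). Of the ribosome builders, NPM3 rose 6.4-fold, GAR1 4.13-fold, NOP56 3.59-fold and DKC1 3.34-fold. GAR1, NOP56 and DKC1 belong to the particles that modify ribosomal RNA. Averaged per line, 9 of the 19 were called. RAN, the GTPase that drives transport through the nuclear pore, rose 4.4-fold, with 42066, 44875, 30027, 34620 and 29287 on the PG-haESC arrays and 7842 and 7898 on the arrays labelled fibroblast. The mitochondrial ribosomal proteins MRPL12 and MRPS27 rose 3.4-fold and 3.41-fold, and TIMM23, the channel of the inner membrane, 2.63-fold.

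Sterol synthesis genes did not follow. None of 11 rose and 3 fell (median -0.55), a count that was 5 without ICSI ESC array 1. INSIG1, which holds back cholesterol synthesis when sterol is plentiful, had 381, 564, 818, 753 and 1199.6 on the PG-haESC arrays and 3134 and 3202 on the arrays labelled fibroblast. CYP51A1 fell by 0.76 and EBP by 0.71 on the log2 scale, both enzymes of the route from lanosterol to cholesterol. Neither EBP, CYP51A1 nor INSIG1 passed averaged per line or with arrays centred on their medians. EBP also lost its call without either array labelled fibroblast or without PG-haESC array 2 or 5, and CYP51A1 without fibroblast array 2.

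The 20 genes with the largest rise held 2 carriers of nutrients. SLC2A3, a high-affinity glucose transporter, had 19269, 14164, 18273, 20146 and 18473 on the PG-haESC arrays and 386 and 447 on the arrays labelled fibroblast (43.4-fold higher). SLC7A3, a carrier of arginine and lysine, had 9242, 5475, 10593, 10840 and 6115 on the PG-haESC arrays and 73.3 and 81.1 on the arrays labelled fibroblast (at least 70.3-fold). Both genes were high on all 5 stem cell arrays, and array 2 was the lowest for each (limma, adjusted p between 1.8e-08 and 1.9e-07). Reference genes often used for scaling were not level either: 5 of 14 housekeeping genes rose, none fell and the median was 0.32. GAPDH, the glycolytic enzyme, had 12987, 12411, 13015, 15990 and 13642 on the PG-haESC arrays and 2416 and 2379 on the arrays labelled fibroblast. HPRT1, of purine salvage, had 10651, 7952, 10670, 9987 and 7789 on the PG-haESC arrays and 1334 and 1398 on the arrays labelled fibroblast. They rose 5.66-fold and 6.65-fold.

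**Figure D4:**
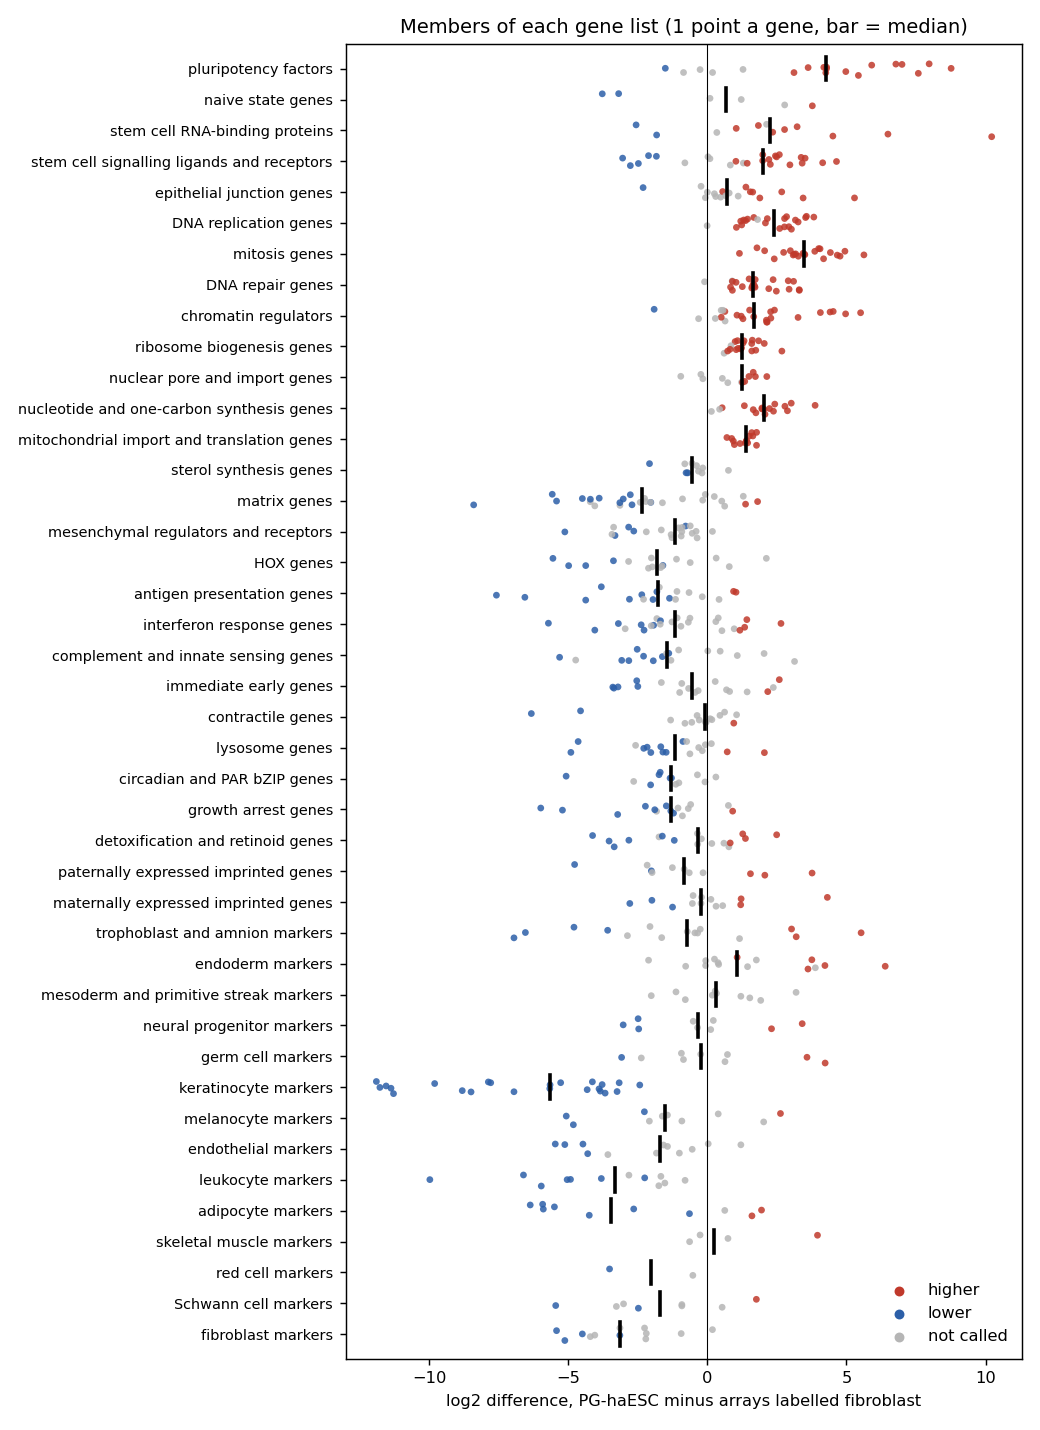
Log2 difference (PG-haESC minus arrays labelled fibroblast) of each tested member of each gene list, with 1 point per gene coloured by its call and a black bar at each list's median. Mitosis and mitochondrial import genes lie wholly to the right, keratinocyte markers wholly to the left, and matrix, HOX and immune lists mostly to the left.

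Several others of those 20 genes lie outside the lists. DDX10, an RNA helicase of ribosome assembly, had 11475, 11562, 12816, 12574 and 12460 on the PG-haESC arrays and 156 and 167 on the arrays labelled fibroblast (75.7-fold higher, 4 of 4 probe sets called). LMF1, which matures lipases in the endoplasmic reticulum, had 17738, 21352, 21114, 19026 and 18074 on the PG-haESC arrays and 337 and 460.3 on the arrays labelled fibroblast (48.8-fold). HMGB3, a chromatin protein of stem and progenitor cells, had 22201, 24029, 19750, 18217 and 15908 on the PG-haESC arrays and 528 and 657 on the arrays labelled fibroblast (32.6-fold, 3 of 4 probe sets called). These 3 were close over the stem cell arrays (limma, adjusted p between 3.9e-09 and 3.5e-08). TMEFF1, a membrane protein with follistatin-like domains, was at least 55.4-fold higher. ACTC1, the actin of heart muscle, was at least 37.3-fold higher. It was higher on PG-haESC arrays 3 and 4, which share the code M2, with 2433, 2552, 9198, 9478 and 2779. UCHL1, a deubiquitinase of neurons and germ cells, rose 29.2-fold, with 14673, 11376, 12165, 12648 and 5786 and MPH2 the lowest. PCDH8, a protocadherin of early embryos and brain, was at least 55.2-fold higher, with 6037, 3687, 12724, 16529 and 2270.1. FAM89A rose 40.5-fold, with 1 of its 2 probe sets higher and 1 lower, so its direction rests on the brighter one.

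On the side that PG-haESCs lacked, the 20 genes with the largest fall were mostly genes of keratin filaments, the cornified envelope, desmosomes and hair shafts. KRT1, the keratin of the upper epidermis, had 133, 278, 116, 149 and 132 on the PG-haESC arrays and 53895 and 53774 on the arrays labelled fibroblast (359.8-fold lower). LORICRIN, the main protein of the cornified envelope, had 30.9, 8.96, 17.6, 26.2 and 7.75 on the PG-haESC arrays and 41861 and 43154 on the arrays labelled fibroblast (at least 451-fold lower). DSC3, a cadherin of desmosomes, had 119, 135, 73.3, 75.9 and 114 on the PG-haESC arrays and 23041 and 24744 on the arrays labelled fibroblast. TP63, the master regulator of stratified epithelia, fell by 6.95 on the log2 scale, with 116, 242, 75.6, 74 and 129 on the PG-haESC arrays and 14270 and 14624 on the arrays labelled fibroblast. The stem cell signals of these genes lay near or under the array medians, and array 2 was the highest for KRT1 and TP63 (limma, adjusted p between 9.6e-08 and 3.1e-06 for KRT1, DSC3 and TP63). SERPINB5, a serpin of epithelia, and SPINK5, a protease inhibitor of the epidermis, were at least 243-fold and at least 284-fold lower. TCHH, KRTAP3-1 and KRTAP7-1 are proteins of the hair follicle and shaft, and were at least 211-fold, at least 187-fold and at least 215-fold lower. USP14, named for a deubiquitinase of the proteasome that most cells make, had 9.57, 34, 20.1, 7.18 and 7.73 on the PG-haESC arrays and 33364 and 33353 on the arrays labelled fibroblast. All 5 of its probe sets were called lower. LORICRIN, SERPINB5, SPINK5, TCHH, KRTAP7-1 and USP14 passed the filter only through the arrays labelled fibroblast. KRTAP3-1 was also above the median on an ICSI ESC array, but could not have passed without them. The USP14 name comes from the platform's annotation, and whether those probe sets read that gene was not tested.

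Matrix genes fell in part, with wide spread over the stem cell arrays. Of 28 tested, 11 fell, 2 rose and 15 did not pass (median -2.33). ASPN, a small proteoglycan of connective tissue, had 18.7, 26.4, 9.07, 7.5 and 28.8 on the PG-haESC arrays and 5677 and 5909.7 on the arrays labelled fibroblast (at least 61.5-fold lower), and passed the filter only through the latter. COL1A1, the main chain of type I collagen, had 163, 1322, 163, 516 and 424 on the PG-haESC arrays and 8122 and 9202 on the arrays labelled fibroblast. FBLN1, a glycoprotein of basement membranes and elastic fibres, had 572, 743, 492, 812 and 1289.5 on the PG-haESC arrays and 7131 and 7025 on the arrays labelled fibroblast. No stem cell array reached the others, but COL1A1 was far higher on array 2 than on arrays 1 and 3. The mean level of the list ran from 8.26 log2 on array 3 to 10.1 on array 2, against 11.7 on both arrays labelled fibroblast. COL1A1 fell by 4.49 ± 1.12 and FBLN1 by 3.14 ± 0.45 (SE, log2 scale; limma, adjusted p = 0.0083 and 0.00021). COL5A2, a chain of type V collagen, rose 3.5-fold, with 21612, 19834, 18227, 20157 and 14868 on the PG-haESC arrays and 5392 and 4999 on the arrays labelled fibroblast. Its sign turned with its 4 probe sets averaged (log2 difference -0.23), of which 2 were called. The number of matrix genes called lower was 19 without ICSI ESC array 1, 7 without either array labelled fibroblast and 6 averaged per line. The number higher was 1 without PG-haESC array 1 or without either array labelled fibroblast.

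Fibroblast markers fell in 4 of 12 cases and none rose (median -3.14), and 10 of 12 were called without ICSI ESC array 1. VIM, the intermediate filament of mesenchyme, had 12158, 46310, 5969, 20523 and 25143 on the PG-haESC arrays and 35417 and 36028 on the arrays labelled fibroblast. The stem cell values ran across a wide range and overlapped the others, and VIM was not called on this probe set (limma, adjusted p = 0.47). Of its 4 probe sets, 1 was called lower and none higher. PG-haESCs shared their culture with feeder cells, whose part in these levels was not tested. Of 20 mesenchymal regulators and receptors, 5 fell and none rose (median -1.15). PRRX1, a homeobox factor of limb and skin mesenchyme, had 97.4, 242, 83.3, 296 and 281 on the PG-haESC arrays and 6360.3 and 6684 on the arrays labelled fibroblast. TGFBR3, a co-receptor of TGF-beta, had 912, 670.2, 810.4, 764 and 1212 on the PG-haESC arrays and 6367 and 6417 on the arrays labelled fibroblast. TBX15, a T-box factor of dermal cells, had 76.2, 222, 66.1, 182 and 65.4 on the PG-haESC arrays and 657 and 579 on the arrays labelled fibroblast. Both arrays labelled fibroblast lay above all 5 others for the 3 genes, and TGFBR3 fell 7.1-fold (limma, adjusted p between 1.2e-05 and 0.012 for the 3 genes). The PRRX1 call was lost averaged per line and that of TBX15 without fibroblast array 1. The list's count was 11 without ICSI ESC array 1, 2 or 3 without fibroblast array 1 or 2, and 2 averaged per line.

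HOX genes, which tell cells their place along the body axis, were lower in part. Of 26 on the array, 10 did not pass the filter, 5 of the other 16 fell and none rose (median -1.82). HOXA9 had 175, 187, 225, 122 and 137 on the PG-haESC arrays and 5169 and 4990.4 on the arrays labelled fibroblast (31.6-fold lower). HOXA5 had 190.2, 515, 117, 109 and 71.7 on the PG-haESC arrays and 2948 and 2778 on the arrays labelled fibroblast. HOXA7, which passed the filter only through the arrays labelled fibroblast, was at least 5.26-fold lower. HOXC13, the HOX gene of hair and nail, fell by 3.37 on the log2 scale. The adjusted p of HOXA9, HOXA5 and HOXC13 lay between 6.9e-05 and 0.0046 (limma). PG-haESC array 2 was the highest of the 5 for HOXA5 and for the list as a whole. Without either array labelled fibroblast, or averaged per line, 3 HOX genes were called.

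Antigen presentation genes had 9 of 18 lower and 2 higher (median -1.77). MAMU-DRA, the alpha chain of a class II molecule that immune cells and stimulated epithelia carry, had 50.6, 104, 52.6, 71.8 and 52.2 on the PG-haESC arrays and 11257 and 12389 on the arrays labelled fibroblast (at least 125-fold lower). CD74, its chaperone, had 19.9, 9.78, 14.7, 17.6 and 5.15 on the PG-haESC arrays and 901 and 1121 on the arrays labelled fibroblast (at least 10.7-fold). Both genes were at or under the median on all PG-haESC arrays. CD74 passed the filter only through the arrays labelled fibroblast. MAMU-DRA was also above the median on an ICSI ESC array, but could not have passed without them. So the filter fixed the direction of both genes, and no test is given. Both are also genes of leukocytes, whose markers had a mean log2 signal of 9.41 and 9.37 on the arrays labelled fibroblast and of 4.87 to 6.33 on the PG-haESC arrays. MAMU-B, a class I gene, fell by 2.80 on the log2 scale, with 2352, 2462, 1972, 2472 and 2272 on the PG-haESC arrays and 16388 and 15558 on the arrays labelled fibroblast. Its other probe set rose, its call was lost with both averaged, and class I genes are near-identical copies that probe sets may not tell apart. PSME2, an activator of the proteasome, rose 2.04-fold, a call lost with its probe sets averaged. Averaged per line, 5 of the 18 genes were lower.

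Interferon response genes were divided, with 7 of 24 lower and 4 higher (median -1.18), or 29.2% and 16.7%, against 17.2% and 23% of all genes. IFITM1, a membrane protein that blocks virus entry and is known in stem cells, had 36197, 31516, 23616, 24533 and 13097 on the PG-haESC arrays and 3524 and 3593 on the arrays labelled fibroblast (6.26-fold higher). BST2, which tethers virus particles, had 3364, 1863, 2209, 1770 and 3545 on the PG-haESC arrays and 963 and 966 on the arrays labelled fibroblast (2.68-fold higher). Both were higher on every stem cell array (limma, adjusted p between 0.00012 and 0.0054). IFI16, a sensor of DNA, had 21.8, 80.3, 20.5, 72.3 and 1284 on the PG-haESC arrays and 6438 and 6184 on the arrays labelled fibroblast. IFIT3, an RNA-binding effector, had 68.6, 108, 97.7, 114 and 351 on the PG-haESC arrays and 1343 and 1299.6 on the arrays labelled fibroblast. MPH2 stood above the 4 MPH1 arrays for the last pair, yet below both arrays labelled fibroblast. No member was called lower averaged per line, and 3 and 4 were without fibroblast array 1 and 2. IFIT2 was called higher (2.54-fold), but its log2 difference was -0.02 with its 6 probe sets averaged, under which 2 members in all were higher.

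Complement and innate sensing genes had 8 of 17 lower and none higher (median -1.46). CFD, a complement protease that fat tissue secretes, had 175, 129.7, 104, 131 and 63.5 on the PG-haESC arrays and 3978 and 4353 on the arrays labelled fibroblast. SERPING1, the inhibitor of the first complement component, had 602, 485, 552, 581 and 1097 on the PG-haESC arrays and 2641 and 2642 on the arrays labelled fibroblast. CD55, which protects cells from complement, fell 4.9-fold. The groups did not overlap for these genes (limma, adjusted p between 6.8e-06 and 0.0018), and MPH2 had the highest SERPING1 and the lowest CFD signal of the stem cells. Without fibroblast array 1 the count was 5, and averaged per line 4.

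Immediate early genes, which answer growth factors and stress within minutes, had 5 of 18 lower and 2 higher (median -0.56). DUSP1, a phosphatase that ends MAP kinase signals, had 1129, 1469, 2170.3, 1615 and 4328 on the PG-haESC arrays and 22736 and 22543 on the arrays labelled fibroblast. CEBPD, a factor of inflammation and growth arrest, had 424, 667, 384, 383 and 732 on the PG-haESC arrays and 5366 and 5420.3 on the arrays labelled fibroblast. Each was lower on every stem cell array, by 10.5-fold and 10.2-fold (limma, adjusted p between 0.0001 and 0.00011). SGK1, a kinase downstream of PI3 kinase, rose 6-fold with 6095, 6429.6, 10417, 9331 and 4304 on the PG-haESC arrays and 830.2 and 1407 on the arrays labelled fibroblast, a call lost averaged per line. ATF3, a stress factor, rose 4.5-fold, a call lost with its 3 probe sets averaged.

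Lysosome genes had 9 of 18 lower and 2 higher (median -1.18), or 1 higher without fibroblast array 2. CTSH, a cysteine protease, had 343, 202, 258, 268 and 373 on the PG-haESC arrays and 7561 and 7136 on the arrays labelled fibroblast (25-fold lower, both probe sets called). ASAH1, which splits ceramide, had 3137, 3201, 3065, 2999.7 and 3928 on the PG-haESC arrays and 14984 and 14934 on the arrays labelled fibroblast (4.48-fold lower, 4 of 4 probe sets called). GLA, the galactosidase, went up 4.14-fold, with 4247, 3546, 3569.5, 3014 and 3589.7 on the PG-haESC arrays and 862 and 864 on the arrays labelled fibroblast. NPC1, which exports cholesterol from lysosomes, fell 3.02-fold. The groups did not overlap for any of the 4 genes, and genes of the same organelle differed in opposite directions (limma, adjusted p between 5.0e-07 and 6.6e-05).

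Genes of the circadian clock and its outputs had 6 of 12 lower and none higher (median -1.31). RORA, a nuclear receptor that drives BMAL1, had 229, 403, 143, 281 and 176 on the PG-haESC arrays and 7471 and 7465 on the arrays labelled fibroblast (33.7-fold lower). BMAL1, a core activator of the clock, had 306, 729, 330.5, 426 and 266 on the PG-haESC arrays and 1427 and 1564 on the arrays labelled fibroblast. PER1, a core repressor, had 163, 182, 122, 189.7 and 171 on the PG-haESC arrays and 556 and 542 on the arrays labelled fibroblast. Activators and the repressor alike were lower on every stem cell array (limma, adjusted p between 4.3e-05 and 0.015). BMAL1 and PER1 fell by 2.04 and 1.74 on the log2 scale, and the BMAL1 call was lost without fibroblast array 2, averaged per line and with its probe sets averaged. The count of 6 was 3 without fibroblast array 2 and 3 with each gene's probe sets averaged.

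Contractile genes were mostly not called: 1 of 15 rose, 2 fell and the median was -0.07. MYH11, the myosin of smooth muscle, fell 23.5-fold, with 196, 167, 286, 560.4 and 93.2 on the PG-haESC arrays and 4509 and 4532 on the arrays labelled fibroblast. SYNPO2, an actin-binding protein of smooth and skeletal muscle, was at least 14.2-fold lower, and passed the filter only through the arrays labelled fibroblast. Without either of those arrays 1 member was lower and none higher. TNS1, a focal adhesion protein, was called higher at 0.95 log2, but had -0.77 with its 2 probe sets averaged. That call was also lost without PG-haESC array 5 and without either array labelled fibroblast. Detoxification and retinoid genes had 6 of 17 lower and 4 higher (median -0.35). The share higher, 23.5%, was near the 23% of all genes, and 35.3% were lower, against 17.2%. RARA, the alpha receptor of retinoic acid, rose 2.42-fold and SOD2, the superoxide dismutase of mitochondria, 2.58-fold. MAOA, which oxidises amines, fell 3.07-fold. The count of 6 was 2 without fibroblast array 1 and 3 averaged per line.

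Markers of the lineages that stem cells form were read on each array. Of 15 endoderm markers, 5 rose and none fell (median 1.07). APOA1, an apolipoprotein of yolk sac and liver, had 1109, 695, 283, 457 and 988 on the PG-haESC arrays and 9.96 and 6.43 on the arrays labelled fibroblast (at least 5.44-fold higher). FOXA2, a pioneer factor of endoderm, had 407, 1008, 240.2, 125 and 96.5 on the PG-haESC arrays and 12 and 12 on the arrays labelled fibroblast. EOMES, a T-box factor of the primitive streak and endoderm, had 1072, 4709, 849, 486 and 189.9 on the PG-haESC arrays and 40.8 and 60.1 on the arrays labelled fibroblast. FOXA2 and EOMES were highest on array 2 and lowest on array 5, and the mean level of the list ran from 10.1 log2 on array 2 to 7.77 on array 5, against 6.96 and 6.98. With signals under the array median set to it, 3 endoderm markers were called, and FOXA2 and EOMES were not among them. The EOMES call was also lost without fibroblast array 1. The adjusted p of APOA1, FOXA2 and EOMES lay between 1.9e-05 and 0.016 (limma). HHEX, a homeobox factor, was called higher (2.1-fold), but not with its 4 probe sets averaged.

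None of 10 mesoderm and primitive streak markers was called. Trophoblast and amnion markers had 3 of 15 higher and 4 lower (median -0.72), or 20% and 26.7%, against 23% and 17.2% of all genes. VTCN1, a cell surface protein of amnion and trophoblast, had 1472, 1137, 2208, 1518 and 543 on the PG-haESC arrays and 42.5 and 13.6 on the arrays labelled fibroblast (at least 10.8-fold higher). GATA3, a factor of trophoblast, T cells and hair follicles, had 252, 167, 416, 434 and 1519 on the PG-haESC arrays and 13640 and 13859 on the arrays labelled fibroblast (27.7-fold lower). MPH2 had the lowest VTCN1 and the highest GATA3 signal of the stem cell arrays (limma, adjusted p between 7.2e-05 and 0.00038). The count of 4 was 2 without either array labelled fibroblast. Neural progenitor markers had 2 of 9 higher and 3 lower, or 22.2% and 33.3%. Of those lower, POU3F1 was above the median on PG-haESC array 4 alone of the stem cell arrays. It could not have passed the filter without the arrays labelled fibroblast, so its place in the count supports nothing. Without either array labelled fibroblast 1 was higher, and averaged per line 1 was lower. DCX, a microtubule protein of young neurons, had 298, 115, 249.6, 378 and 1055 on the PG-haESC arrays and 58.2 and 22.2 on the arrays labelled fibroblast. STMN2, a microtubule regulator of neurons, fell 8.13-fold, and the neural marker level was highest on MPH2. Of 9 germ cell markers, 2 rose (22.2%, against 23% of all genes) and 1 fell. None was higher averaged per line or without fibroblast array 2, and 1 was without fibroblast array 1. The lower member was lost without fibroblast array 2, and 2 were lower without ICSI ESC array 3. SOHLH2, a factor of early germ cells, had 504, 627, 372, 287 and 3486 on the PG-haESC arrays and 66.4 and 73 on the arrays labelled fibroblast. MPH2 stood far above the MPH1 arrays. DAZL, an RNA-binding protein of germ cells, had 182, 171, 184, 82.7 and 80.1 on the PG-haESC arrays and 9.3 and 4.49 on the arrays labelled fibroblast. DCX and DAZL passed the filter only through PG-haESC arrays, since every other array of the series lay under its median for them. So they had to be higher, and their place in these counts supports nothing. The calls of DCX and DAZL were lost with signals under the array median set to it and without fibroblast array 2. That of SOHLH2 was lost without either array labelled fibroblast.

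Imprinted genes, of which cells express the copy from 1 parent, were read in both classes because PG-haESCs hold a maternal genome alone. Of 11 paternally expressed genes, 3 rose and 2 fell (median -0.83). These shares of 27.3% and 18.2% lie near the 23% and 17.2% of all genes. The number lower was 5 without ICSI ESC array 1, 0 without fibroblast array 1 or without the variance trend, and 1 without fibroblast array 2. The median was -1.52 without fibroblast array 2. NDN had 9629, 5600.4, 7879, 7609.6 and 7291 on the PG-haESC arrays and 2520.5 and 2576 on the arrays labelled fibroblast (2.93-fold higher). MEST had 3447, 2392, 4769.5, 4483 and 4035 on the PG-haESC arrays and 896 and 901 on the arrays labelled fibroblast (4.19-fold higher). SNRPN, a splicing protein, had 277, 591, 161, 679.6 and 443 on the PG-haESC arrays and 1682 and 1459 on the arrays labelled fibroblast. NDN and MEST were higher on all haploid arrays and SNRPN lower on all of them, and SNRPN fell by 2.01 on the log2 scale (limma, adjusted p between 0.00036 and 0.02). The MEST call was lost averaged per line. The SNRPN call was lost without fibroblast array 1, without the variance trend and with its probe sets averaged. PEG3 lay under the median on all 5 stem cell arrays and did not pass (log2 difference -2.16 ± 1.79, adjusted p = 0.40), but passed without ICSI ESC array 1. Of 13 maternally expressed genes, 3 rose and 3 fell (median -0.21), or 23.1% in each direction, also near the shares of all genes. Averaged per line 1 was higher and none lower, and without fibroblast array 1 or 2 none and 1 were lower. TFPI2, a protease inhibitor of placenta, had 417, 729, 628, 959.7 and 2188 on the PG-haESC arrays and 50 and 46.6 on the arrays labelled fibroblast (at least 7.2-fold higher), and GRB10, an adaptor of insulin and IGF receptors, rose 2.32-fold, a call lost averaged per line. H19, a long RNA that limits growth, had 3432, 867, 2429, 645 and 14625 on the PG-haESC arrays and 3623 and 3510.1 on the arrays labelled fibroblast. MPH2 stood above both arrays labelled fibroblast and the 4 MPH1 arrays below them, and H19 was not called.

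**Figure D5:**
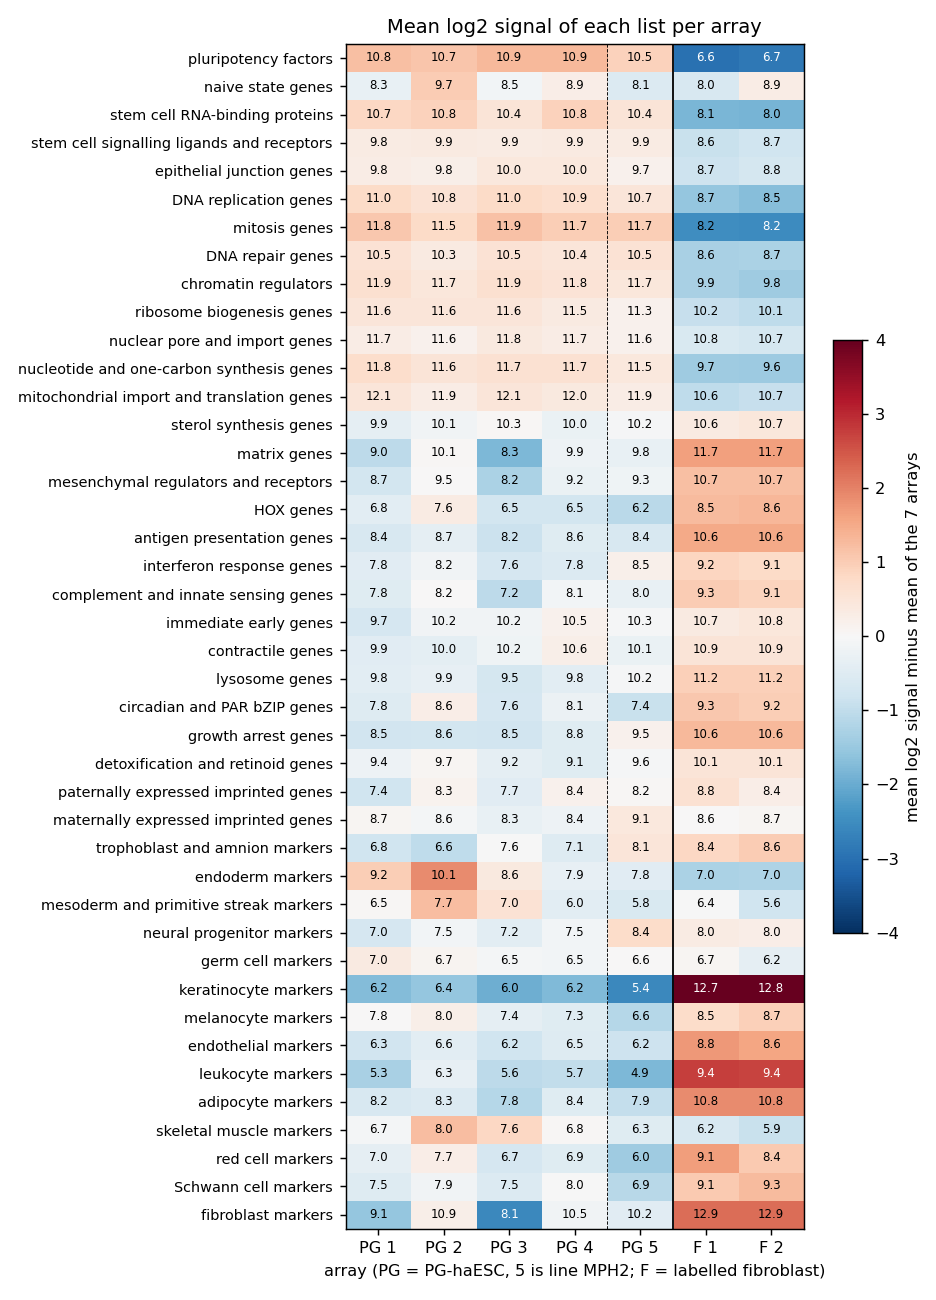
Mean log2 signal over the tested members of each gene list on PG-haESC arrays (PG 1 to 5) and arrays labelled fibroblast (F 1 and 2); colour is the difference from the mean of the 7 arrays and the dashed line sets off line MPH2. Mitosis genes (11.5 to 11.9) are level over the 5 stem cell arrays, while fibroblast markers (8.07 to 10.9) and endoderm markers (7.77 to 10.1) vary among them.

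Lists differed in how far they varied over the stem cell arrays. Mean levels ranged over PG-haESC arrays from 10.5 to 10.9 log2 for pluripotency factors, 11.5 to 11.9 for mitosis genes and 9.84 to 9.89 for signalling genes. They ranged from 6.21 to 6.61 for endothelial markers, from 7.77 on array 5 to 10.1 on array 2 for endoderm markers and from 8.07 on array 3 to 10.9 on array 2 for fibroblast markers. Array 2, at the latest of the MPH1 passages, was also the highest of the 5 for endoderm, mesoderm and HOX lists, and arrays 3 and 1 the lowest for matrix genes. Array 2 also had the highest array median of the 5, 132.7 against 77.92 to 96.1. Its mean signal of spiked-in control probe sets was the highest too, 14555 against 5212 to 8757. The parts of passage and of these array measures in its levels were not tested. The 4 MPH1 arrays correlated at 0.887 to 0.934 and MPH2 with them at 0.863 to 0.918, so the lines did not separate by this measure. Of the 5 genes called higher with the largest spread over the stem cell arrays, 3 are given here. LOC699924 had 15799, 32282, 11209, 5831 and 639.7 on the PG-haESC arrays and 71.7 and 98.9 on the arrays labelled fibroblast. LOC699676 had 14545, 14684, 9026, 4031 and 218 on the PG-haESC arrays and 13.5 and 66.6 on the arrays labelled fibroblast. NPPB, a natriuretic peptide, had 773, 519.5, 2132, 3439.7 and 285 on the PG-haESC arrays and 16.9 and 9.37 on the arrays labelled fibroblast. The annotation gives no name for the first pair. For each of them array 5, the array of MPH2, was the lowest of the 5 and above both arrays labelled fibroblast, while for NPPB the MPH1 arrays also differed widely among themselves. The LOC699676 call was lost averaged per line.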

How the data were processed

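TRIZOL-extracted RNA was amplified with a 3' IVT Express kit and hybridised to the Affymetrix Rhesus Macaque array, per the labels' protocols. The deposited values are linear signal intensities, 1 per probe set, made by the authors with MAS5, per the submitters' processing notes, and the MAS5 version is not stated in those notes. The trimmed mean of every array is 500, so the values were scaled to a common level. Probe sets were named from the platform annotation given with the data: 24956 have 1 symbol, 361 several and 27390 none. The 158 control probe sets were left out.

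Log2 signals of all 10 arrays were fitted with limma 3.58.1 (R 4.3.3) as group means with line as a random block (estimated correlation 0.29) and a variance trend, and the contrast PG-haESC minus fibroblast was tested. Probe sets above their array's median on at least 2 arrays were kept (34139), and p-values were adjusted by Benjamini-Hochberg over them. At an unadjusted p under 0.05, 14394 probe sets would be called. A gene was represented by its tested probe set with the highest mean log2 signal and that symbol alone. Named genes were the 20 with the largest fold in each direction among called genes without overlap (signals under the array median raised to it), from each list up to 4 called genes of lowest p and 1 of the opposite direction, genes of prior interest (among them POU5F1, NANOG, VIM and H19), and the 5 in each direction with the largest SD over PG-haESC arrays. The members and lists were chosen with earlier results of these data known. Alternatives covered the block, the arrays fitted, scaling, filter, offset, variance model, probe set rule and each array in turn. The fit was tested on simulated data. Motifs in promoters were not analysed here. Figures were drawn with matplotlib 3.10.9 under Python 3.11.15.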

Additional observations from a re-analysis of the deposited data

Results flagged for a closer look

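Among the 207 genes named by the rules and the array measures, 12 had 1 PG-haESC array far from the other 4, with a gap of over 0.71 of the range of the 5 arrays. Chance flags about 1 in 20 groups. On array 2, PRDM1, a repressor counted here as a germ cell marker, had 952 against 164.2 to 180.8 on the other stem cell arrays (gap 0.945). Its lower call was lost without fibroblast array 2. KLF5 had 2672 against 1123 to 1314 (0.819), KRT1 278.4 against 115.7 to 148.5 (0.715) and ASPRV1, a protease of the epidermis, 261.9 against 74.38 to 104.9 (0.727). CLDN10, a claudin, was low on array 2 with 304.3 against 535 to 654.1 (0.737), and SLC2A3 with 14164 against 18273 to 20146 (0.723). On array 5, the only one of MPH2, FAM89A was low with 3292 against 7799 to 8963 (0.861) and UCHL1 with 5786 against 11376 to 14673 (0.726). ZBTB16 was high on array 5 with 259.5 against 9.509 to 21.88 (0.748), SERPING1 with 1097 against 485 to 602.2 (0.735) and ASAH1 with 3928 against 3000 to 3201 (0.759). The 3' to 5' ratio of GAPDH was highest on array 1 at 2.45 (0.719). The cause of these gaps was not tested.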

How the results depend on the processing

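Averaging the arrays of each line before the fit left 6294 probe sets called, 3570 higher and 2724 lower. Centring each array on its median left 3444 lower and moved the median log2 difference to 0.241, which was 0.144 after quantile normalization and 0.127 with a filter at the 75th percentile. Leaving out 1 array at a time gave 7843 to 14024 probe sets called, 4767 to 6904 higher and 3076 to 7120 lower, the lowest without either array labelled fibroblast (3128 lower without array 1 and 3076 without array 2) and the highest without ICSI ESC array 1. Of 201 named genes called, 147 kept their call under every alternative and 51 lost it under at least 1. Calls lost or turned in sign numbered 33 with arrays averaged per line and 20 with each gene's probe sets averaged. They numbered 13 without fibroblast array 1 and 16 without fibroblast array 2. Of the 20, 4 turned their sign, to -0.23 for COL5A2, -0.02 for IFIT2, -0.37 for PMP22 and -0.77 for TNS1 on the log2 scale. In 7 lists the median changed sign under at least 1 alternative. The cause of these shifts was not tested. No paired analysis was possible because only the arrays labelled fibroblast carry replicate numbers. With 2 arrays in 1 group and 1 array of MPH2, the number of arrays limits the precision, and low signals near the array median carry background.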

Other observations

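Markers of blood vessel, blood, nerve and pigment cells were also read on the 7 arrays. LYZ, the lysozyme of macrophages and granulocytes, had signals of 1.89, 57.9, 19.1, 6.62 and 2.86 on the PG-haESC arrays and 7272 and 6996 on the arrays labelled fibroblast. EMCN, a sialomucin of endothelium, had 51.3, 38.7, 31.6, 34.4 and 48.7 on the PG-haESC arrays and 1747 and 1909 on the arrays labelled fibroblast. S100B, a calcium-binding protein of Schwann and Langerhans cells, had 11.4, 20.6, 7.99, 12.8 and 9.28 on the PG-haESC arrays and 469 and 522 on the arrays labelled fibroblast. All stem cell signals of these 3 genes lay under their array medians, and both arrays labelled fibroblast lay far above them. The 3 genes passed the filter only through those arrays, so they had to differ and no test is given. TYR, the first enzyme of melanin synthesis, had 13.9, 26.4, 16, 12.5 and 10.3 on the PG-haESC arrays and 394 and 404 on the arrays labelled fibroblast, and passed in the same way. HBB, the beta chain of adult haemoglobin, fell by 3.51 on the log2 scale, with 117, 177, 55.9, 107 and 69 on the PG-haESC arrays and 1112 and 996 on the arrays labelled fibroblast.

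Some markers of these and other lineages were higher in PG-haESCs. MITF, a factor of melanocytes and of the lysosome programme, rose 6.18-fold, with 3254, 3109, 3455, 3018 and 2339.9 on the PG-haESC arrays and 471 and 468 on the arrays labelled fibroblast, but not with its probe sets averaged. CKM, the creatine kinase of muscle, was at least 2.71-fold higher with 396, 1009, 224, 340.1 and 101 on the PG-haESC arrays and 17.7 and 16.5 on the arrays labelled fibroblast, a call lost with signals under the array median set to it. PNPLA2, a lipase of fat droplets, rose 3.04-fold and ADIPOQ, the hormone of fat cells, 3.86-fold, while FABP4, the fatty acid carrier of the same cells, had 353, 252, 194, 157 and 55.2 on the PG-haESC arrays and 8502 and 9113 on the arrays labelled fibroblast. The ADIPOQ and PNPLA2 calls were lost with each gene's probe sets averaged, and 1 of the 3 ADIPOQ probe sets was lower.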
